A study of Mus minutoides with 4 samples.

Results

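The genes described here encode the constitutive subunits of the proteasome, its activators, its inhibitor and its dedicated assembly chaperones. They were taken as every protein-coding gene of the annotation whose symbol is Psma, Psmb, Psmc, Psmd, Psme, Psmf or Psmg followed by a number, leaving out the immunoproteasome subunits *Psmb8*, *Psmb9* and *Psmb10*. This gave 45 genes among 41325 in each deposited table, of which 21969 are protein-coding. The rule uses names and not measured values, though earlier results of these data were known when it was chosen.

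The proteasome degrades proteins that have been tagged with ubiquitin. Its core is a barrel of alpha and beta rings with the proteolytic sites inside, and the regulatory particle on its ends binds the tagged protein, removes the ubiquitin and unfolds and threads the chain with a ring of ATPases. Cells can exchange the regulatory particle for activator rings, can replace the catalytic beta subunits with immunoproteasome versions that interferon gamma induces, and need chaperones to build both the core and the base. Pluripotent stem cells are known for high proteasome activity, and in human embryonic stem cells the lid subunit PSMD11 has been linked to it.

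RNA-seq compared iPSC lines 6 and 10 with fibroblast lines 1 and 2 of the African pygmy mouse, *Mus minutoides*. The iPSCs were made from tail-tip fibroblasts by electroporation of doxycycline-inducible reprogramming plasmids (the Yamanaka factors with *Glis1*, *Nanog* and *Lin28a*). The paper states that doxycycline was given during induction and withdrawn before colonies were picked to establish the lines. The iPSCs were kept in 2i medium on mouse embryonic fibroblast feeder cells treated with mitomycin C. The fibroblasts came from tail tips, were not reprogrammed and grew in medium with serum. Each line gave 1 library, so each group had n = 2, and the effects of cell type, medium, plasmids and feeder cells cannot be told apart. The labels do not say which lines come from separate animals, and the p-values therefore measure only the spread between these libraries.

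Exon reads summed to 36694828 and 33858709 in iPSC lines 6 and 10, and to 33546022 and 33084850 in fibroblast lines 1 and 2. The reads were placed on the *M. musculus* build GRCm38, so RNA of the mouse feeder cells would map to the same genes. All 10 pluripotency markers (such as *Nanog*, *Zfp42* and *Esrrb*) rose in the iPSC libraries, with a summed 4211 to 4573 TPM in iPSC libraries and 1.40 to 1.43 TPM in fibroblast libraries, where *Eras* and *Foxd3* were listed at 0. *Nanog* is also a gene of the plasmids. Over all genes tested, 37.2% rose and 33.6% fell. Of 15 fibroblast markers 13 fell and *Dcn* and *Lum* did not pass. *Dcn* had a log2 fold change of 0.94, with 374 and 120 TPM in iPSC lines 6 and 10, against 108 and 130 TPM in fibroblasts. The sum of the 15 markers was still 3810 to 7529 TPM in iPSC libraries, against 28323 to 33133 TPM in fibroblast libraries. Of 10 macrophage markers 8 rose, with a summed 269 to 643 TPM in iPSC libraries, against 8.05 to 9.15 TPM in fibroblast libraries, where *Lyz2*, *Adgre1*, *Aif1* and *Tyrobp* were at 0. The part that RNA of such other cells has in the values that follow was not tested. In bulk RNA, fewer cells of a type and less RNA per cell cannot be told apart.

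Of the 45 genes, 43 were abundant in every library. Their TPM (exon reads per exon length, scaled to the same total in each library) ran between 19.3 and 886 in iPSC line 6 and between 23.5 and 897 in iPSC line 10. In fibroblast lines 1 and 2 the same genes lay between 17.8 and 427 TPM and between 19.5 and 507 TPM. *Psmb5* was the highest member in all 4 libraries. The lowest was *Psmf1* in the iPSC lines and *Psmg3* in the fibroblast lines. At least 449 exon reads stood behind each of these values. The other members, *Psma8* and *Psmb11*, were near 0.

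**Figure D1:**
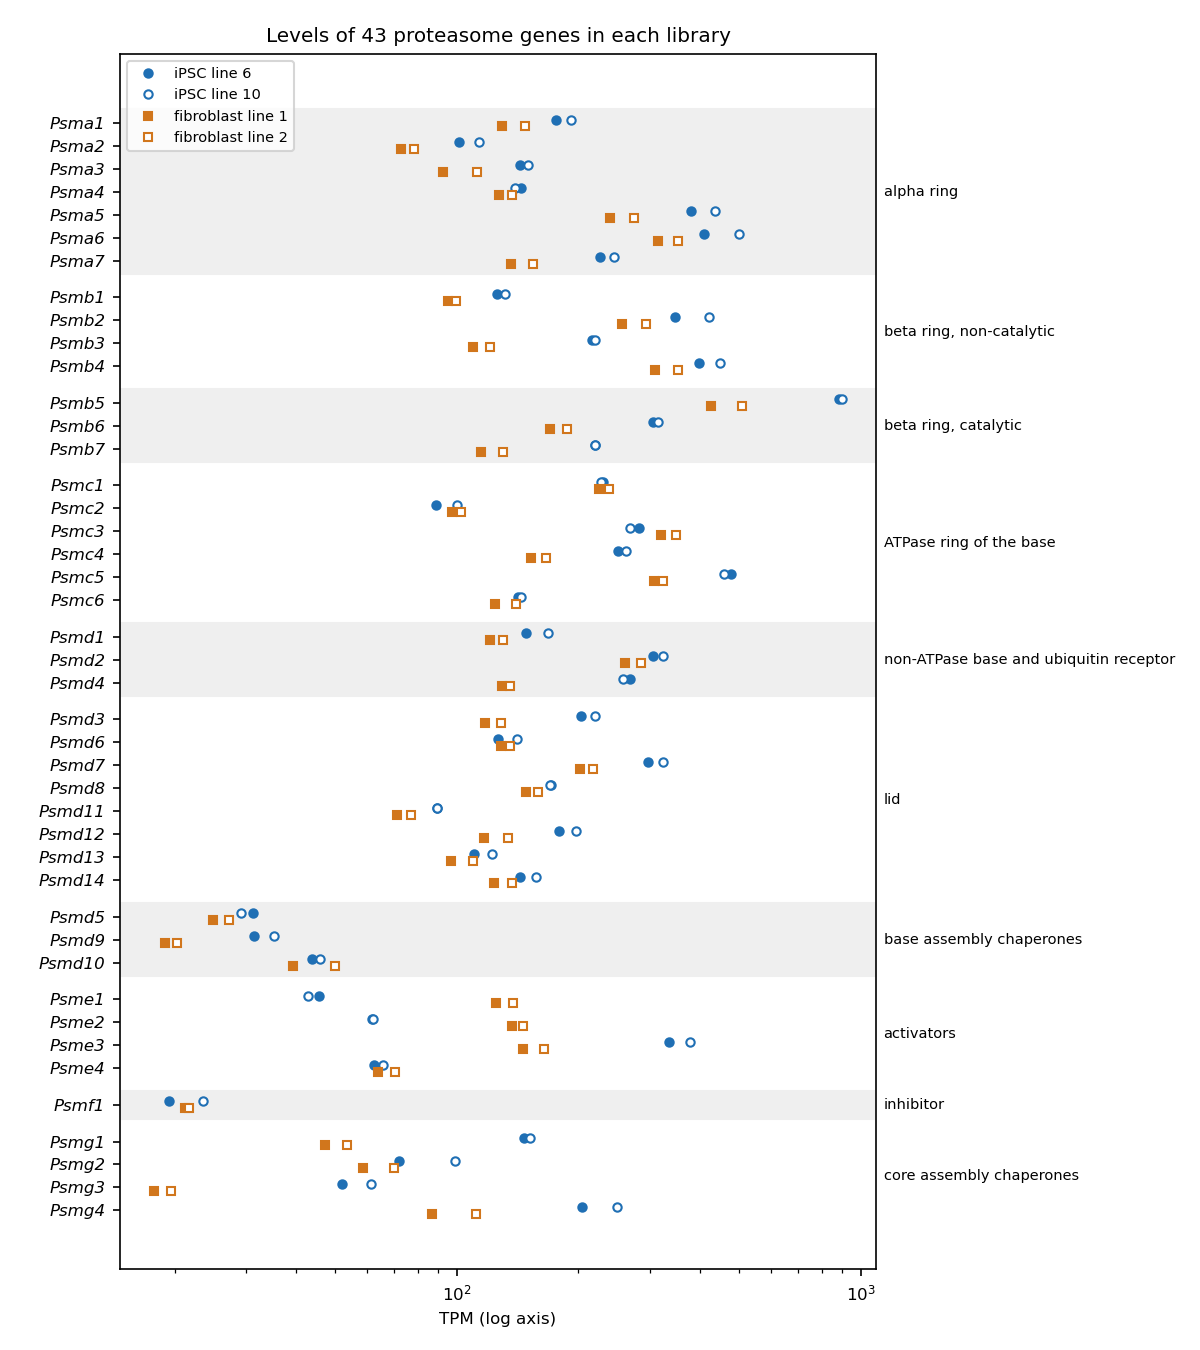
TPM on a log axis of the 43 abundant proteasome genes, grouped by role, with iPSC lines 6 and 10 as filled and open circles and fibroblast lines 1 and 2 as filled and open squares. The circles stand clear to the right of the squares for the catalytic subunits, *Psme3*, *Psmg1*, *Psmg3* and *Psmg4*, and clear to the left for *Psme1* and *Psme2*.

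Across the members, the iPSCs had a modestly higher level of many core genes, among them the catalytic ones. The level of 3 core-assembly genes was over 2-fold higher. Many genes of the regulatory particle differed little, and activator transcripts changed in opposite directions. Of 44 members tested with edgeR at an adjusted p under 0.05, 22 rose in iPSCs, 3 fell and 19 did not pass. Over all 17777 genes tested, 37.2% rose, 33.6% fell and 70.8% passed in either direction, against 22, 3 (6.82%) and 25 (56.8%) of the 44 members. The median log2 fold change of the members was 0.30 and that of all genes tested 0.08. Most changes were small, since 6 members (13.6%) passed and were also over 2-fold. Over all genes 49.5% were past both limits, with 27.2% higher and 22.4% lower in iPSCs. Past 2-fold, *Psme3*, *Psmg1*, *Psmg3* and *Psmg4* were higher and *Psme1* and *Psme2* were lower. In TPM, both iPSC libraries were above both fibroblast libraries for 35 of the 44 members and below them for *Psmc3*, *Psme1* and *Psme2*, where 48.7% and 37.8% of all genes tested did so.

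The split depends on how the libraries are scaled. Genes at 1 TPM or more numbered 15684 and 15697 in iPSC lines 6 and 10, against 13979 and 13986 in fibroblast lines 1 and 2. The fold changes use TMM factors of 1.09 and 1.12 for iPSC lines 6 and 10 and of 0.891 and 0.920 for fibroblast lines 1 and 2. With total-count scaling, which is close to that of TPM, the median of all genes moved from 0.08 to 0.37 and that of the members from 0.30 to 0.59, so that the members stood 0.22 above all genes under both scalings. Under the other alternatives that distance ran from 0.08 (DESeq2) to 0.35 (genes with a mean of at least 50 reads). It was 0.12 without fibroblast line 1, 0.17 without line 2, 0.32 without iPSC line 6 and 0.15 without line 10. With total-count scaling the split of the 44 members was 35 higher and 2 lower, beside 44.0% and 26.8% of all genes tested. With upper-quartile scaling it was 28 higher and 3 lower, beside 41.2% and 29.2% of all genes. The *Psmc3* call ended with total-count scaling (-0.12). Leaving out fibroblast line 1 or 2 gave 12 and 11 higher of 45 members tested, where 24.1% and 23.6% of all genes were higher, so that the share of higher members was then near that of all genes. In both cases 2 members were lower, beside 21.7% and 21.5% of all genes. Leaving out iPSC line 6 or 10 gave 27 and 25 higher of 44, beside 37.3% and 36.5% of all genes, and 6 and 8 lower, beside 35.9% and 34.8%. Without either fibroblast line, the 3 catalytic subunits and 3 core chaperones passed as higher, whereas fewer genes of other roles did, with 1 alpha, 1 non-catalytic beta and 1 lid gene higher. Without iPSC line 10 only 2 members were higher past 2-fold.

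**Figure D2:**
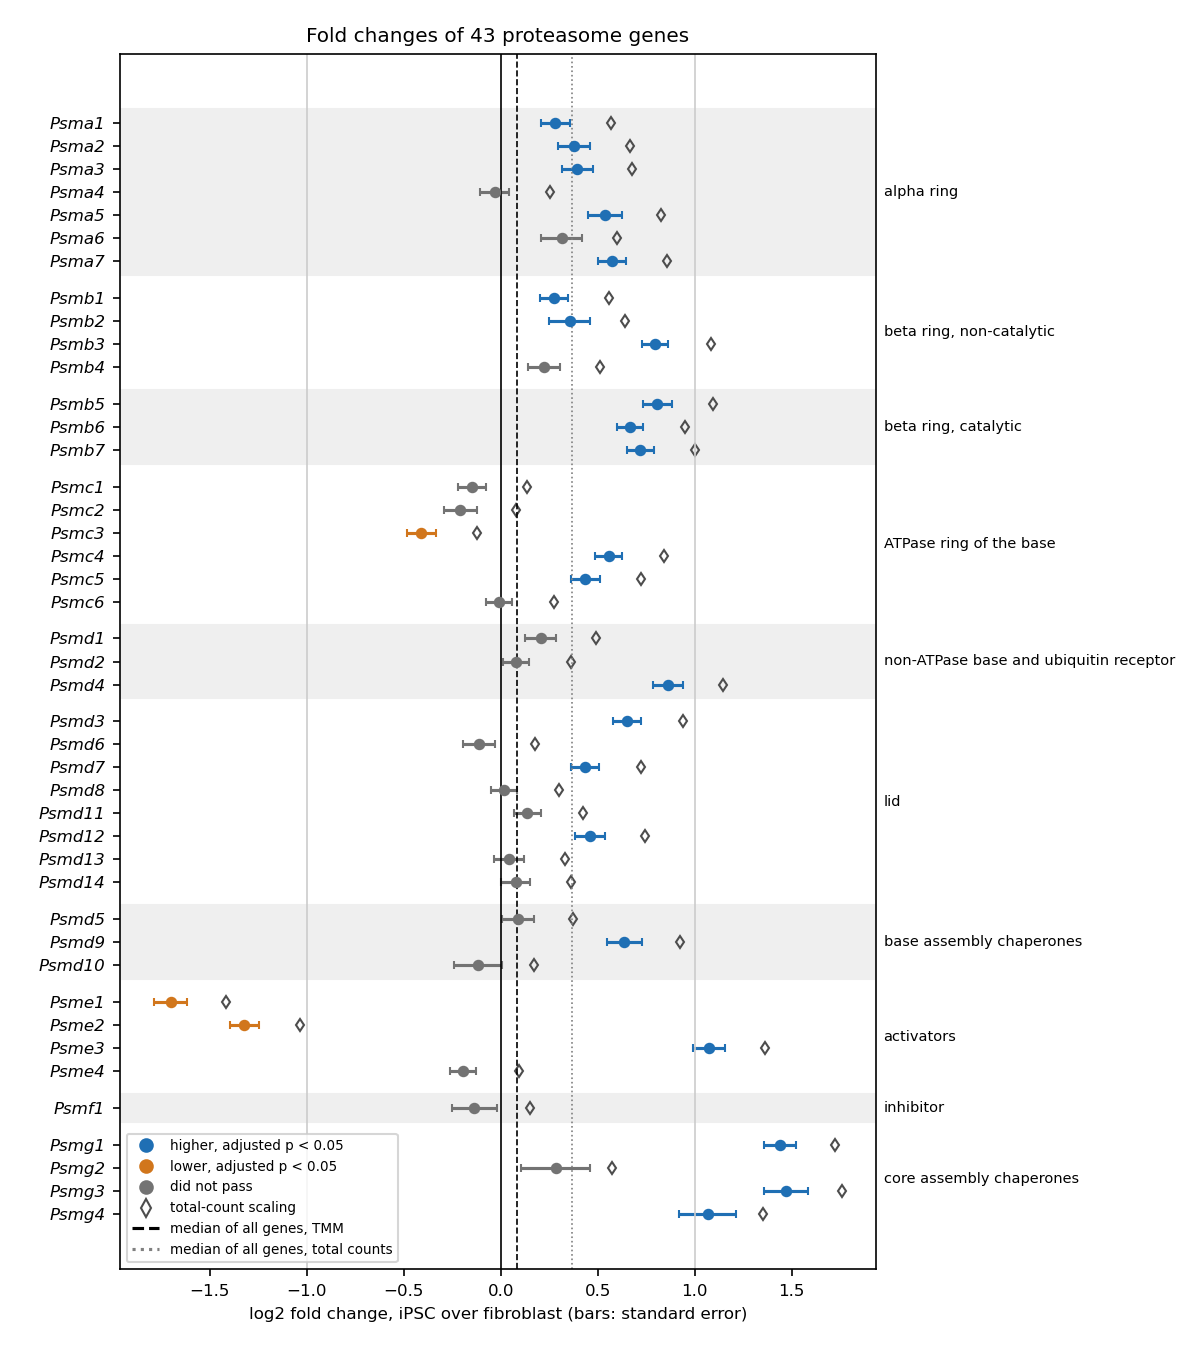
Log2 fold change, iPSC over fibroblast, of the 43 abundant members with its standard error, blue where higher and orange where lower at an adjusted p under 0.05 and grey where the test was not passed. Diamonds give total-count scaling, which moves each gene to the right together with the median of all genes (dashed line at 0.08, dotted line at 0.37), and turns the direction of uncalled genes such as *Psma4*, *Psmc1*, *Psmc2*, *Psmd6* and *Psme4*.

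The catalytic subunits of the core all rose, where 37.2% of all genes tested did. *Psmb5* carries the chymotrypsin-like site and lies on chromosome 14, 54614119 to 54618022 (ENSMUSG00000022193). It had 886 and 897 TPM in iPSC lines 6 and 10, against 427 and 507 TPM in fibroblast lines 1 and 2. The iPSC values were nearly the same in both lines and well above both fibroblast values. The fold was 1.75, with a log2 fold change of 0.81 ± 0.08 (SE) and an adjusted p of 0.00110 (edgeR). *Psmb6*, of the caspase-like site (chromosome 11, 70525367 to 70527858, ENSMUSG00000018286), had 306 and 314 TPM in iPSCs, against 170.2 and 187 TPM in fibroblasts. Its groups did not overlap, and its log2 fold change was 0.67 ± 0.07 (edgeR, adjusted p = 0.00133). *Psmb7*, of the trypsin-like site (chromosome 2, 38588036 to 38644087, ENSMUSG00000026750), had 220.3 and 219 TPM in iPSCs, against 115 and 130.0 TPM in fibroblasts. The iPSC lines again were alike and above both fibroblast lines, and the log2 fold change was 0.72 ± 0.07 (edgeR, adjusted p = 0.00117). *Nek6* overlaps the *Psmb7* model on the other strand and had up to 2344 exon reads, and no source used here says whether the counting used strand. The summed TPM of the catalytic subunits was 1412 and 1431 in iPSCs, against 711 and 825 in fibroblasts, a ratio of means of 1.85.

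In the non-catalytic part of the beta ring, 3 of 4 subunits rose (37.2% of all genes tested did), with a median log2 fold change of 0.31. These subunits shape the ring and hold the catalytic ones. *Psmb3* (chromosome 11, 97703399 to 97713500, ENSMUSG00000069744) had the highest fold change of them. Its level was 216 and 219.6 TPM in iPSCs, against 109 and 120.4 TPM in fibroblasts, with no overlap. The log2 fold change was 0.80 ± 0.07 (edgeR, adjusted p = 0.000838), and 85.1 to 86.7% of its reads were placed at a single site. *Psmb4* (chromosome 3, 94884093 to 94886961, ENSMUSG00000005779) had the lowest, with 397 and 448 TPM in iPSCs, against 310.3 and 352 TPM in fibroblasts. Although its TPM values did not overlap, it missed the test (log2 fold change 0.22 ± 0.08, edgeR adjusted p = 0.0653). The log2 fold changes of *Psmb1* and *Psmb2* were 0.27 and 0.36, and both passed.

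The alpha ring forms the gate of the core and the surface that activators dock on. Of its 7 genes 5 were higher (37.2% of all genes tested were), with a median log2 fold change of 0.38. *Psma7* (chromosome 2, 180036374 to 180042433, ENSMUSG00000027566) led them. It had 227 and 245 TPM in iPSCs, against 136 and 154 TPM in fibroblasts. Its groups were apart, and the log2 fold change was 0.57 ± 0.07 (edgeR, adjusted p = 0.00259). At the other end stood *Psma4* (chromosome 9, 54950790 to 54958030, ENSMUSG00000032301), with 144 and 139 TPM in iPSCs, against 127 and 137 TPM in fibroblasts. The lower iPSC value was almost that of fibroblast line 2, and the test was not passed (log2 fold change -0.03 ± 0.07, edgeR adjusted p = 0.722). Among the rest, *Psma1*, *Psma2*, *Psma3* and *Psma5* rose with log2 fold changes of 0.28, 0.38, 0.39 and 0.54. *Psma6* did not pass at 0.31 (edgeR, adjusted p = 0.0527), and 52.2 to 57.8% of its gene reads were intronic, which exon reads leave out.

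Members of the core known for a single tissue were close to absent. *Psma8* encodes an alpha subunit of the testis (chromosome 18, 14706151 to 14762299) and had 9 and 10 exon reads in iPSC lines 6 and 10 and 0 in both fibroblast lines. It was at least 4.91-fold higher in iPSCs if the fibroblast lines together are given 3 counts as the most that 0 allows, a bound for counting error only, and the low-count filter left it out of the test. *Psmb11* encodes the thymic beta subunit (chromosome 14, 54621433 to 54629556), and had 12 and 13 exon reads in iPSCs, against 0 and 3 in fibroblasts. The ratio of normalized counts was 6.46 with a 95% counting interval of 1.97 to 33.4, and it did not pass (edgeR, adjusted p = 0.0628). *Psmb11* is on the plus strand and *Psmb5* on the minus strand, and 3410 bases lie between their starts. In TPM, *Psma8* had 0.486 and 0.582 and *Psmb11* 0.229 and 0.268 in iPSC lines 6 and 10.

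Of the 17 base and lid genes of the regulatory particle 6 rose (35.3%), 1 fell and 10 did not pass, with a median log2 fold change of 0.08. The share that rose was near the 37.2% of all genes tested, and the median was that of all genes. Of the 14 alpha and beta genes of the core 11 rose (78.6%) and none fell, with a median of 0.39. The difference between the core and the particle was not tested. With total-count scaling the median was 0.36 for the particle and 0.67 for the core, beside 0.37 for all genes. There, 3 of 6 ATPases, 3 of 3 other base subunits and 7 of 8 lid genes rose, where 44.0% of all genes did. The particle median was again near that of all genes. Counted in TPM, the core genes summed to 4077 and 4425 in iPSCs, against 2594 and 2947 in fibroblasts (ratio of means 1.53). The genes of the regulatory particle summed to 3510.1 and 3629.8 TPM in iPSCs, against 2740.4 and 2969 TPM in fibroblasts (ratio of means 1.25). Within each library, where scaling cancels, the core exceeded the particle 1.16 and 1.22 times in iPSCs, against 0.947 and 0.992 times in fibroblasts. The iPSC ratios lay above both fibroblast ratios. With 2 libraries against 2, an exact permutation test cannot go below p = 0.333, and none is given for such ratios.

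The ATPase ring of the base was mixed, with 2 of 6 genes higher and 1 lower, beside 37.2% and 33.6% of all genes tested. Its median log2 fold change was -0.08, which turned to 0.21 with total-count scaling, where that of all genes went from 0.08 to 0.37. Without iPSC line 6 or 10, 3 were lower in each case, and without fibroblast line 1 or 2 none was lower and 1 and 0 were higher. Its subunits unfold the substrate and open the gate of the core. *Psmc4* (chromosome 7, 28041707 to 28050101, ENSMUSG00000030603) had 249.9 and 263 TPM in iPSCs, against 152 and 167 TPM in fibroblasts. Both iPSC lines were above the fibroblast lines, with a log2 fold change of 0.56 ± 0.07 (edgeR, adjusted p = 0.00236). *Psmc3* (chromosome 2, 91054009 to 91066369, ENSMUSG00000002102) went the other way, with 282 and 268 TPM in iPSCs, against 319.6 and 349.6 TPM in fibroblasts. Among the members chosen by name, it was the single core or regulatory particle subunit that fell (log2 fold change -0.41 ± 0.07, edgeR adjusted p = 0.00790). *Sem1*, counted with the other components in the related lists below, fell more (-0.59, edgeR adjusted p = 0.00194). *Slc39a13* overlaps *Psmc3* on the other strand with up to 5187 exon reads, against at least 7093 of *Psmc3*. The ratio of *Psmc4* to *Psmc3* within a library was 0.885 and 0.979 in iPSCs, against 0.477 and 0.476 in fibroblasts. *Psmc5* rose, with a log2 fold change of 0.44, while *Psmc1*, *Psmc2* and *Psmc6* did not pass and had -0.15, -0.21 and -0.01.

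Of the other base subunits, *Psmd4* rose and *Psmd1* and *Psmd2* did not pass. *Psmd4* encodes a ubiquitin receptor between base and lid (chromosome 3, 95032694 to 95042614, ENSMUSG00000005625). It had 268 and 258 TPM in iPSCs, against 129 and 135 TPM in fibroblasts. Its iPSC values were close to each other and far above both fibroblast values. Its log2 fold change was 0.86 ± 0.08 (edgeR, adjusted p = 0.000965). This was the largest rise among the core and regulatory particle subunits chosen by name that passed the test. *Uchl5*, in the related lists below, rose more (1.38). *Psmd2*, a scaffold that docks ubiquitin carriers (chromosome 16, 20651652 to 20663414, ENSMUSG00000006998), had 306 and 323 TPM in iPSCs, against 260.2 and 286 TPM in fibroblasts. Its log2 fold change of 0.08 ± 0.07 did not pass (edgeR, adjusted p = 0.342). *Psmd1*, the other large scaffold, had a log2 fold change of 0.21 (edgeR, adjusted p = 0.0789).

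In the lid, 3 of 8 genes rose (37.5%) and 5 did not pass, with a median log2 fold change of 0.11. Both were near the values of all genes tested, of which 37.2% rose with a median of 0.08. *Psmd14* encodes the deubiquitinase that cuts ubiquitin chains from the substrate (chromosome 2, 61711694 to 61800376, ENSMUSG00000026914). It had 143 and 157 TPM in iPSCs, against 123 and 137 TPM in fibroblasts. The ranges were apart but close, and the log2 fold change of 0.08 ± 0.08 did not pass (edgeR, adjusted p = 0.398). *Psmd11*, the subunit linked to human embryonic stem cells, braces lid and core (chromosome 11, 80428615 to 80473248, ENSMUSG00000017428). It had 89.1 and 89.1 TPM in iPSCs, against 71.1 and 77.0 TPM in fibroblasts. Its TPM was higher in both iPSC lines, yet the log2 fold change of 0.14 ± 0.07 was not past the threshold (edgeR, adjusted p = 0.131). Against the median of all genes, *Psmd11* stood close by on either scale, with 0.14 beside 0.08 under TMM and 0.42 beside 0.37 under total counts.

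The highest fold change of the lid was that of *Psmd3*, a scaffold subunit (chromosome 11, 98682554 to 98695979, ENSMUSG00000017221). It had 203 and 219.7 TPM in iPSCs, against 117 and 129 TPM in fibroblasts. The groups were well apart, with a log2 fold change of 0.65 ± 0.07 (edgeR, adjusted p = 0.00170). *Psmd6* (chromosome 14, 14112174 to 14120984, ENSMUSG00000021737) had the lowest, with 126 and 141 TPM in iPSCs, against 128 and 135 TPM in fibroblasts. Its groups overlapped, and it did not pass (log2 fold change -0.11 ± 0.08, edgeR adjusted p = 0.279). *Psmd7*, the partner of *Psmd14* in the deubiquitinase module, rose with 0.43, and *Psmd12* rose with 0.46. *Psmd8* and *Psmd13* had 0.02 and 0.04 and did not pass.

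Chaperones that build the base showed 1 rise among 3 (33.3%), near the 37.2% of all genes tested that rose. *Psmd9* (chromosome 5, 123169413 to 123250131, ENSMUSG00000029440) had 31.3 and 35.2 TPM in iPSCs, against 18.9 and 20.2 TPM in fibroblasts. It was above the fibroblast range in both iPSC lines, with a log2 fold change of 0.64 ± 0.09 (edgeR, adjusted p = 0.00362). *Psmd10*, also known as gankyrin (chromosome X, 140948429 to 140956728, ENSMUSG00000031429), had 43.8 and 45.8 TPM in iPSCs, against 39.3 and 49.8 TPM in fibroblasts. The fibroblast lines enclosed the iPSC lines, and it did not pass (log2 fold change -0.11 ± 0.12, edgeR adjusted p = 0.443). *Psmd5* had a log2 fold change of 0.09 and did not pass.

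Of the chaperones that build the core 3 of 4 rose (37.2% of all genes tested did). Among them, *Psmg3* and *Psmg1* had the largest rises of the members that passed the test. The group had a median log2 fold change of 1.25 and a summed TPM 2.23 times as high in iPSCs. They work as pairs on the alpha ring. *Psmg3* (chromosome 5, 139823592 to 139826885, ENSMUSG00000029551) had 52.0 and 61.2 TPM in iPSCs, against 17.8 and 19.5 TPM in fibroblasts. Its log2 fold change was 1.47 ± 0.11 (edgeR, adjusted p = 0.000645). *Psmg1* (chromosome 16, 95979933 to 95990960, ENSMUSG00000022913), named here for its value, had 146 and 151 TPM in iPSCs, against 47.2 and 53.3 TPM in fibroblasts. No iPSC value of either gene came near the fibroblast values, and *Psmg1* had a log2 fold change of 1.44 ± 0.08 (edgeR, adjusted p = 0.000350). *Psmg4*, the partner of *Psmg3* and likewise named for its value (chromosome 13, 34162964 to 34178173, ENSMUSG00000071451), had 204 and 249 TPM in iPSCs, against 87.0 and 112 TPM in fibroblasts. It was higher in both iPSC lines, with more spread between lines, and its log2 fold change was 1.07 ± 0.15 (edgeR, adjusted p = 0.00325). *Psmg2*, the partner of *Psmg1* (chromosome 18, 67641599 to 67654162, ENSMUSG00000024537), had 71.8 and 99.1 TPM in iPSCs, against 58.7 and 69.8 TPM in fibroblasts. Its iPSC lines differed from each other more than those of any other abundant member (0.43 on the log2 scale), and it did not pass (log2 fold change 0.28 ± 0.18, edgeR adjusted p = 0.212).

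The activators moved in opposite directions, with 1 of 4 higher and 2 lower (3 lower without iPSC line 6 or line 10). Over all genes tested, 37.2% rose and 33.6% fell. *Psme1* and *Psme2* encode the alpha and beta subunits of the interferon-inducible activator PA28 and lie on chromosome 14 with 5911 bases between them. *Psme1* (55578123 to 55581529, ENSMUSG00000022216) had 45.5 and 42.7 TPM in iPSCs, against 125 and 137 TPM in fibroblasts. The fibroblast lines were higher throughout, 3.25-fold on average after normalization, with a log2 fold change of -1.70 ± 0.08 (edgeR, adjusted p = 0.000293). *Emc9* overlaps *Psme1* on the other strand with up to 423 exon reads. *Psme2* (55587441 to 55591113, ENSMUSG00000079197) had 61.6 and 62.1 TPM in iPSCs, against 137 and 146 TPM in fibroblasts. The iPSC lines were alike and below both fibroblast lines, with a log2 fold change of -1.32 ± 0.08 (edgeR, adjusted p = 0.000362).

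The value of *Psme2* is uncertain, because 41.3 to 47.3% of its exon reads were placed at a single site. A near-identical copy, *Psme2b* on chromosome 11 (48945354 to 48946190, ENSMUSG00000078153), can share its reads. *Psme2b* had 20.2 and 29.9 TPM in iPSCs, against 212 and 245 TPM in fibroblasts, and it fell with a log2 fold change of -3.32 ± 0.21 (edgeR, adjusted p = 0.000428). The copy fell in the same direction as *Psme2*, but 29.5 to 44.3% of its own exon reads were placed at a single site. Its value is uncertain as well, and because reads can be shared, the common direction is not a separate measurement. From uniquely placed exon reads alone, the log2 fold change of *Psme2* was -1.33.

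*Psme3* encodes the nuclear activator PA28 gamma, which needs no partner subunit (chromosome 11, 101316213 to 101323537, ENSMUSG00000078652). It had 335 and 378 TPM in iPSCs, against 145 and 164 TPM in fibroblasts. Both iPSC lines were far above the fibroblast lines, 2.11-fold on average, with a log2 fold change of 1.07 ± 0.08 (edgeR, adjusted p = 0.000675). *Psme4* encodes PA200, an activator known from spermatogenesis and the turnover of acetylated histones (chromosome 11, 30771726 to 30880361, ENSMUSG00000040850). It had 62.2 and 65.7 TPM in iPSCs, against 63.6 and 70.3 TPM in fibroblasts, so that the ranges overlapped. Its log2 fold change was -0.19 ± 0.07 and did not pass (edgeR, adjusted p = 0.0567). Total-count scaling turned *Psme4* to 0.09. *Psmf1* encodes PI31, described as an inhibitor of the core in the test tube (chromosome 2, 151715812 to 151744186, ENSMUSG00000032869). With 19.3 and 23.5 TPM in iPSCs, against 21.2 and 21.7 TPM in fibroblasts, the iPSC lines enclosed the fibroblast lines, and the log2 fold change of -0.14 ± 0.12 did not pass (edgeR, adjusted p = 0.352).

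As ratios within a library, the activator transcripts differed widely between the groups. The sum of *Psme1* and *Psme2* over *Psme3* was 0.320 and 0.277 in iPSC lines 6 and 10, against 1.80 and 1.72 in fibroblast lines 1 and 2. The mean was 0.299 ± 0.030 in iPSCs and 1.76 ± 0.05 in fibroblasts (SD, n = 2 each), 5.90 times as high in fibroblasts. This sum includes *Psme2*, whose value is uncertain because its copy can share its reads. *Psme1* alone had 125 and 137 TPM in fibroblast lines 1 and 2, below the 145 and 164 TPM of *Psme3*. *Psme1* over *Psme2* was 0.738 and 0.687 in iPSCs, against 0.914 and 0.940 in fibroblasts. *Psme3* outweighed the interferon-inducible pair in both iPSC libraries, and the pair outweighed *Psme3* in both fibroblast libraries.

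**Figure D3:**
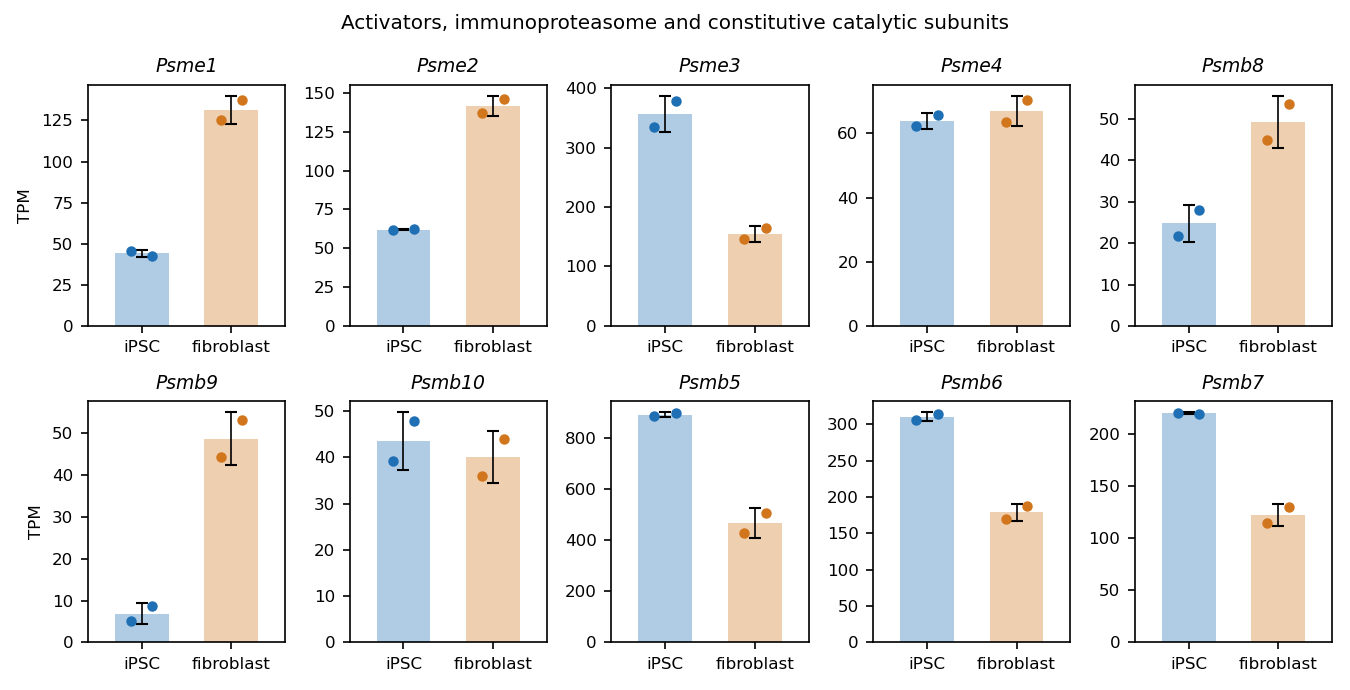
TPM of the 4 activators, the 3 immunoproteasome catalytic subunits and the 3 constitutive ones, with iPSCs on the left in blue and fibroblasts on the right in orange, where points are libraries, bars are means and error bars are the SD of n = 2. *Psme3* and the constitutive subunits are higher in iPSCs and *Psme1*, *Psme2*, *Psmb8* and *Psmb9* lower, while the libraries of *Psme4* and *Psmb10* overlap between groups.

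The immunoproteasome subunits, which take the place of *Psmb5*, *Psmb6* and *Psmb7*, were set beside them. *Psmb8*, the counterpart of *Psmb5*, had 21.6 and 28.0 TPM in iPSCs, against 44.9 and 53.8 TPM in fibroblasts (log2 fold change -1.12 ± 0.15, edgeR adjusted p = 0.00296). *Psmb9*, the counterpart of *Psmb6*, had 5.15 and 8.68 TPM in iPSCs, against 44.3 and 53.2 TPM in fibroblasts (log2 fold change -2.95 ± 0.27, edgeR adjusted p = 0.00100). Both fell, with iPSC lines below both fibroblast lines. *Psmb10*, the counterpart of *Psmb7*, had 39.1 and 47.9 TPM in iPSCs, against 36.0 and 44.0 TPM in fibroblasts, with overlapping groups (log2 fold change -0.00 ± 0.14, edgeR adjusted p = 0.981). The 3 immunoproteasome subunits together made 0.0467 and 0.0591 of the constitutive ones in iPSCs, against 0.176 and 0.183 in fibroblasts. *Psmb9* over *Psmb6* was 0.0168 and 0.0276 in iPSCs, against 0.260 and 0.284 in fibroblasts. The constitutive subunits thus held the larger part of the catalytic transcripts in every library, and more so in iPSCs.

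Genes that work with the proteasome were taken from lists of known function, while 37.2% of all genes tested rose and 33.6% fell. Among 12 other components and cofactors, 4 rose (33.3%) and 6 fell. With total-count scaling (44.0% of all genes higher, 26.8% lower) 6 rose and 3 fell, the median log2 fold change was 0.14, against -0.15 with TMM, and *Txnl1*, which had fallen by 0.27, had 0.01. Without fibroblast line 1 or 2, where 23.6 to 24.1% of all genes were higher and 21.5 to 21.7% lower, 2 rose and 4 fell in each case. *Uchl5*, a deubiquitinase of the regulatory particle, was highest with 51.8 and 55.6 TPM in iPSCs, against 17.3 and 20.6 TPM in fibroblasts (log2 fold change 1.38 ± 0.10, edgeR adjusted p = 0.000560). *Fbxo7*, an F-box protein that binds PI31, was lowest with 9.89 and 9.32 TPM in iPSCs, against 18.9 and 22.3 TPM in fibroblasts (log2 fold change -1.22 ± 0.10, edgeR adjusted p = 0.000852). Of 4 shuttle receptors, which carry tagged proteins to the proteasome, 3 rose and 1 fell, or 1 and 1 without either fibroblast line. *Rad23b* was highest with 249 and 259 TPM in iPSCs, against 136 and 160 TPM in fibroblasts (log2 fold change 0.65 ± 0.07, edgeR adjusted p = 0.00168). *Ubqln2* was the one that fell, with 92.0 and 85.5 TPM in iPSCs, against 118 and 129 TPM in fibroblasts (log2 fold change -0.60 ± 0.08, edgeR adjusted p = 0.00306).

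Among 11 regulators of proteasome gene transcription and their processing factors, 2 rose (18.2%) and 6 fell (54.5%), beside 37.2% and 33.6% of all genes. With total-count scaling 5 rose and 3 fell, beside 44.0% and 26.8% of all genes, and the median log2 fold change was -0.0083, against -0.29 with TMM. *Nfyc*, *Ufd1* and *Nploc4* no longer passed there (-0.01, -0.08 and -0.10). Without fibroblast line 1 or 2, 1 rose and 3 fell in each case (23.6 to 24.1% and 21.5 to 21.7% of all genes), and without iPSC line 6, 4 rose and 6 fell (37.3% and 35.9% of all genes). *Nfyb*, a subunit of the CCAAT-binding factor, was highest with 29.8 and 28.8 TPM in iPSCs, against 12.2 and 12.2 TPM in fibroblasts (log2 fold change 1.13 ± 0.10, edgeR adjusted p = 0.00102). *Nfe2l2*, the oxidative stress regulator, was lowest with 67.5 and 48.5 TPM in iPSCs, against 172 and 202 TPM in fibroblasts (log2 fold change -1.81 ± 0.19, edgeR adjusted p = 0.00152). Groups did not overlap for either gene. *Nfe2l1*, known for raising proteasome genes when proteasome activity is low, and *Ngly1*, the glycanase that processes its product, also fell, with log2 fold changes of -1.10 and -1.45. *Nfe2l1* and *Ngly1* were named after their values were seen. Of the same list, *Ddi2* rose with 0.52 and *Vcp* did not pass (0.0034), while *Ufd1* and *Nploc4* fell with -0.37 and -0.39. Among 5 ubiquitin genes and E1 enzymes, 3 rose and 1 fell (4 and 0 with total-count scaling). *Rps27a*, which encodes ubiquitin fused to a ribosomal protein, was highest with 741 and 787 TPM in iPSCs, against 313 and 356 TPM in fibroblasts (log2 fold change 1.06 ± 0.07, edgeR adjusted p = 0.000468). *Uba1*, the main ubiquitin-activating enzyme, was lowest with 399 and 398 TPM in iPSCs, against 458 and 511 TPM in fibroblasts (log2 fold change -0.41 ± 0.06, edgeR adjusted p = 0.00480), and it did not pass with total-count scaling (-0.12) or with limma on TPM (-0.28).

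**Figure D4:**
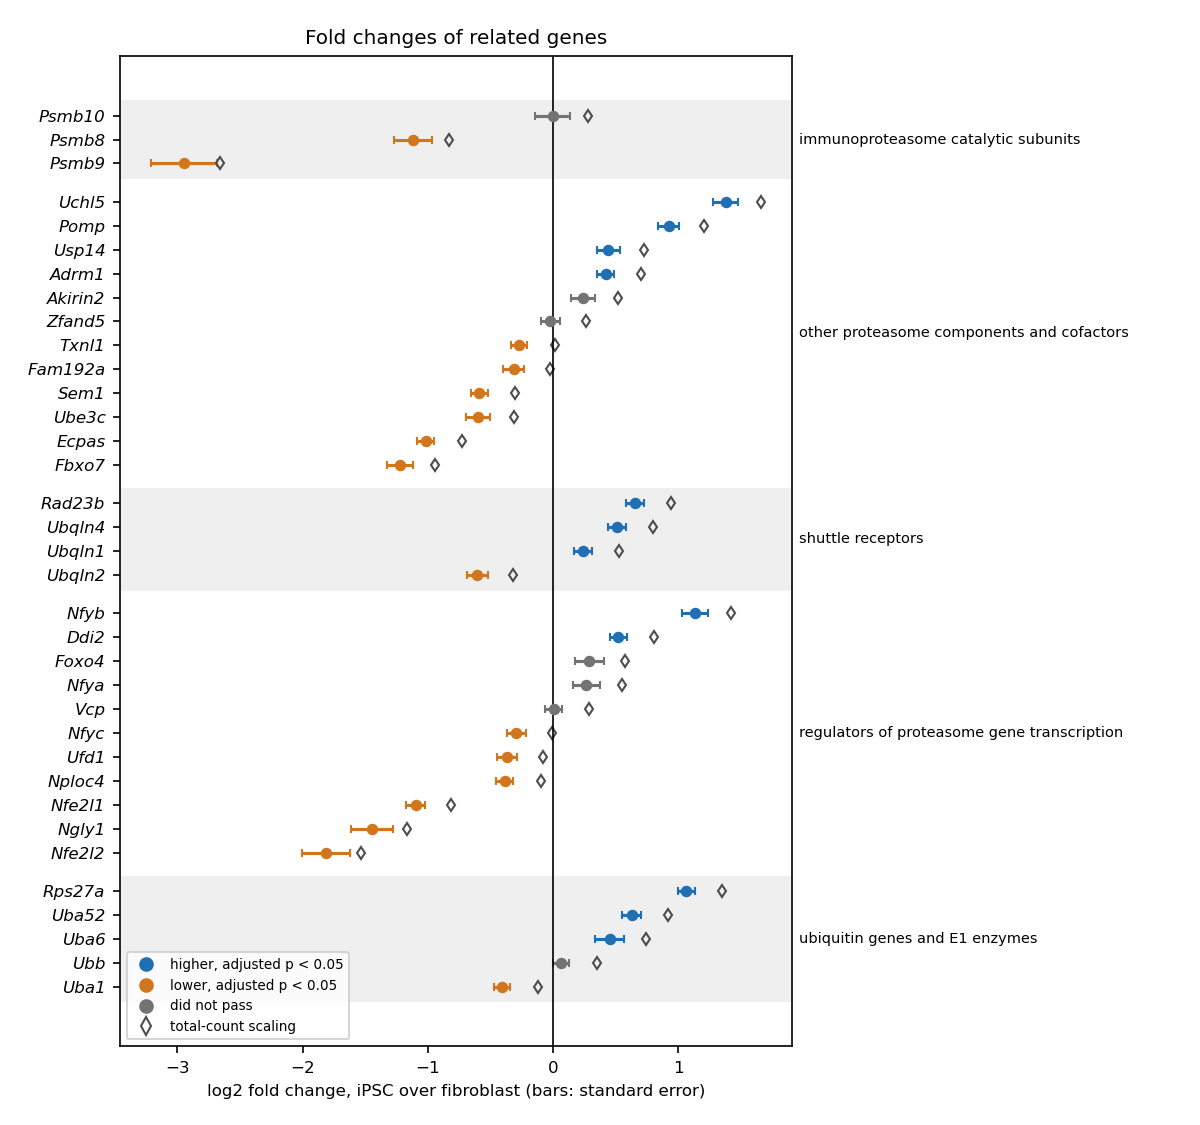
Log2 fold change, iPSC over fibroblast, with its standard error for genes that work with the proteasome, by list, blue where higher and orange where lower at an adjusted p under 0.05 and grey where the test was not passed. Diamonds give total-count scaling. Values run from -2.95 for *Psmb9* to 1.38 for *Uchl5*, and each list holds genes on both sides of 0 except the immunoproteasome subunits, where *Psmb10* lies at about 0 and turns to 0.28 with total-count scaling.

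Beside all genes with at least 10 TPM in every library, a smaller share of the members passed and was over 2-fold. Of 7790 genes with at least 10 TPM in every library, 32.8% rose and 41.8% fell, 34.3% passed and were over 2-fold, and their median log2 fold change was -0.13. Of the 44 members tested 22 rose, 3 fell and 6 (13.6%) passed and were over 2-fold. The 43 abundant members all lie above this floor, which does not match them on level, since their median was 124 to 171 TPM in the 4 libraries. Their fold changes ran from -1.70 for *Psme1* to 1.47 for *Psmg3*, and without the activators and the core chaperones from -0.41 for *Psmc3* to 0.86 for *Psmd4*. Reads of 40 of the 43 were at least 90% uniquely placed in every library, the others being *Psme2*, *Psmb3* and *Psmg3*. An overlapping gene model was present for 17 members, and for 5 of them the highest exon read count of such a model over the libraries was at least 10% of the lowest count of the member itself, namely *Psmb7*, *Psmc3*, *Psmd13*, *Psma2* and *Psme1*.

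**Figure D5:**
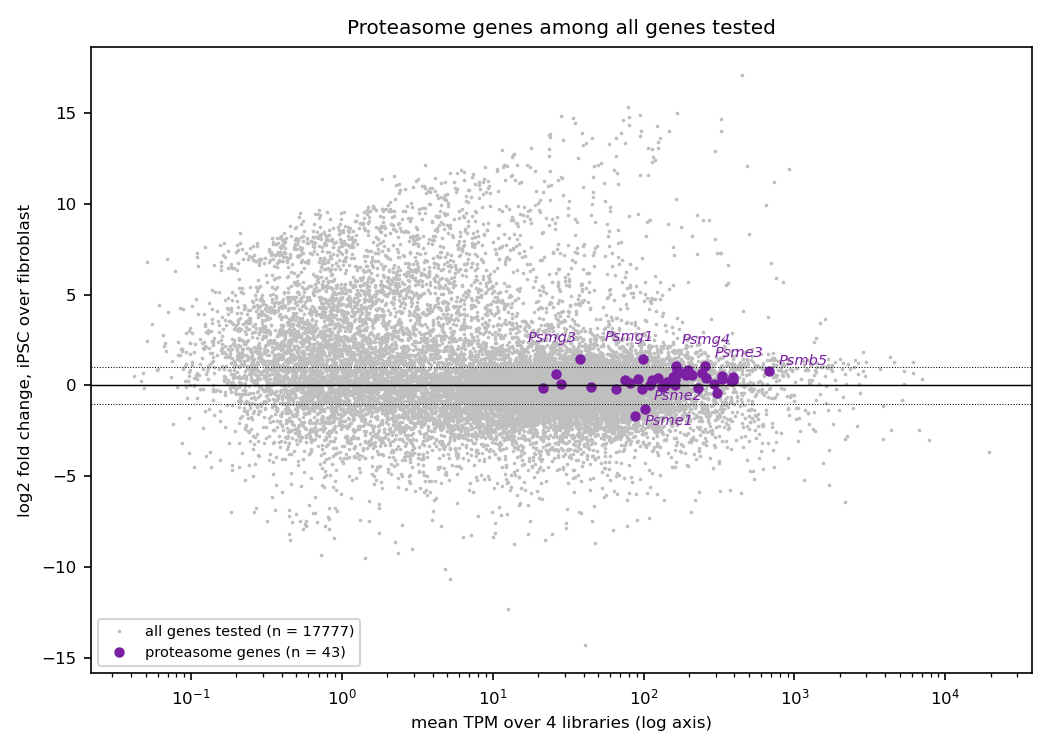
Log2 fold change, iPSC over fibroblast, against mean TPM over the 4 libraries (log axis) for the 17777 genes tested in grey and the 43 abundant proteasome genes in purple, with dotted lines at 2-fold. The members lie at high levels and mostly within 2-fold, with *Psme1* and *Psme2* below and *Psmg1*, *Psmg3*, *Psmg4* and *Psme3* above.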

How the data were processed

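The authors extracted total RNA from the 4 lines, sequenced it with Illumina chemistry and, for each library, deposited counts of total and unique reads in genes, exons and introns. GRCm38 is the build in the submitters' processing notes. The aligner and counter were not given in the sources used here. Deposited TPM values equal exon reads over exon length at a fixed total. The RPKM that the authors deposited was left aside. Deposited fractions and lengths served only to describe the tables.

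Total exon reads, the reads behind TPM, were tested with edgeR 4.0.16 in R 4.3.3 (filterByExpr, TMM, quasi-likelihood test, Benjamini-Hochberg adjustment over all 17777 genes kept) with group as the single term. Standard errors are the log2 fold change over the root of the F statistic. A fold over 2 was a second limit. Members and lists were chosen with earlier results of these data known. Given in full were the catalytic subunits, *Psmd11*, *Psmd14*, the activators, the inhibitor, the tissue-restricted subunits, and the highest and lowest fold change of each other role. Of each related list the highest and lowest gene and all immunoproteasome subunits were named, and markers served as lists.

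The alternatives were total gene reads, unique exon reads, total-count, upper-quartile and DESeq2 (1.42.0) scaling, library sizes without mitochondrial and the 10 most abundant genes, looser and stricter filters (1 read, a mean of 50 reads), DESeq2, a test against 1.2-fold, limma 3.58.1 on log2(TPM + 0.5) and with pseudocounts of 0.1 and 1, and each library left out. The median chi-square per gene between libraries of a group was 6.36 for iPSCs and 1.49 for fibroblasts. Protein and promoter sequences were not analysed here, and *Paaf1* had no row under that name. A few genes of the related lists are not reported here, so the counts of those lists cover the genes reported and not complete lists.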

Additional observations from a re-analysis of the deposited data

How the results depend on the processing

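Of the 25 members that passed, 13 did so under all 18 alternatives (*Psma7*, *Psmb3*, *Psmb5*, *Psmb6*, *Psmb7*, *Psmd3*, *Psmd4*, *Psme1*, *Psme2*, *Psme3*, *Psmg1*, *Psmg3*, *Psmg4*) and 19 under every alternative that kept all libraries. None of the 25 changed direction, and *Psma1*, *Psma2*, *Psma3*, *Psma5*, *Psmb1*, *Psmb2*, *Psmc3*, *Psmc4*, *Psmc5*, *Psmd7*, *Psmd9* and *Psmd12* lost the call at least once. Total counts gave 35 higher members, 9 of them past 2-fold, and total gene reads gave 7 lower. Leaving out each library gave 11 to 27 higher, 2 to 4 higher past 2-fold and 2 to 8 lower; with 1 library left in a group, its spread is taken from the other group. The median log2 fold change of members, 0.30, was 0.59 with total counts, 0.48 with upper quartile, 0.41 with limma at each pseudocount, 0.44 with limma and no filter, and 0.22 to 0.39 with each library left out. The cause of these shifts was not tested beyond the median of all genes, which moved with the scaling. No paired analysis was possible because the groups share no replicate numbers.

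Direction turned in 17 genes, of which *Txnl1* alone had passed. With total counts the log2 fold changes were 0.25 (*Psma4*), 0.28 (*Psmb10*), 0.14 (*Psmc1*), 0.079 (*Psmc2*), 0.28 (*Psmc6*), 0.17 (*Psmd10*), 0.18 (*Psmd6*), 0.093 (*Psme4*), 0.15 (*Psmf1*), 0.015 (*Txnl1*) and 0.26 (*Zfand5*). With upper quartile they were 0.15 (*Psma4*), 0.18 (*Psmb10*), 0.032 (*Psmc1*), 0.17 (*Psmc6*), 0.065 (*Psmd10*), 0.070 (*Psmd6*), 0.047 (*Psmf1*) and 0.16 (*Zfand5*). With limma, at each pseudocount and filter, they were 0.10 (*Psma4*), 0.12 (*Psmb10*), 0.12 (*Psmc6*), 0.017 to 0.018 (*Psmd10*), 0.018 (*Psmd6*) and 0.10 (*Zfand5*). A mean of 50 reads gave 0.062 (*Psma4*), 0.090 (*Psmb10*), 0.085 (*Psmc6*) and 0.070 (*Zfand5*), and DESeq2 size factors 0.023 (*Psmb10*), 0.017 (*Psmc6*) and 0.0028 (*Zfand5*). *Psmb10* had 0.0033 with library sizes without the most abundant genes and 0.0016 with unique reads. Total gene reads gave -0.033 (*Psmd13*), -0.014 (*Psmd14*), -0.040 (*Psmd2*), -0.098 (*Psmd8*), -0.059 (*Ubb*) and -0.11 (*Vcp*), and the filter of 1 read -0.0092 (*Vcp*). Over the left-out libraries the ranges were -0.15 to 0.11 (*Psmb10*), -0.028 to 0.090 (*Psmd13*), -0.029 to 0.026 (*Psmd8*), -0.047 to 0.010 (*Vcp*) and -0.091 to 0.019 (*Zfand5*).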
